A study of Rattus norvegicus with 64 samples.

Results

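Neuregulins and the ErbB receptors form 1 signalling family, and its transcripts were followed here through postnatal development of the rat entorhinal cortex. The members were taken by gene symbol from a list of 7 names, the ligands Nrg1, Nrg2 and Nrg3 and the receptors Egfr, Erbb2, Erbb3 and Erbb4. Of these, 6 were measured among 17260 genes, and Nrg3 was not analysed here. All 6 passed the filter on low counts, as did 12521 genes in all.

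RNA was sequenced after ribosomal depletion from the medial (MEC) and lateral (LEC) entorhinal cortex of Long Evans rats, an outbred laboratory strain. Under a microscope each region was dissected into layer II (LII) and the layers below it (LDeep), at postnatal days 2, 9, 23 and 45 (P2, P9, P23 and P45). Each of the 16 combinations of region, layer and age held 5 samples on day P2, 4 each on days P9 and P45, and 3 on day P23, for 64 samples in all. All were unmanipulated tissue, so every comparison is between ages, layers or regions. The study's text calls its samples biological replicates, and for its miRNA samples from MEC it numbers the animals, with both layers of an animal under 1 number. The labels of the libraries used here carry replicate numbers without naming animals. Where same-numbered samples come from 1 animal, the p-values between ages, which take all samples as independent, are too small, so fits that count each number once or take it as a block are given wherever they change a call. Total counts ran from 3894334 to 11439143 per sample, where 1 count was worth between 0.257 and 0.0874 CPM (counts scaled to a common library size).

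Neuregulins are growth factors with an EGF-like domain, made as membrane-bound precursors that proteases shed from neurons. They bind ErbB3 or ErbB4, which pair with each other or with ErbB2. ErbB2 has no known ligand of its own and serves as a partner, ErbB3 has a weak kinase and relies on its partner, and EGFR answers EGF and related ligands. In the cortex ErbB4 is best known from GABAergic interneurons, and EGFR and ErbB2 are known from glia and their progenitors. Nrg1 is a classic signal for myelination in peripheral nerves.

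Erbb2 and Egfr were the 2 members called higher in LII than in LDeep over all samples, so their upstream sequences are shown. For both the layer difference shifted towards LII with age, and Egfr was lower in LII at P2. Each is the 250 bases before the RefSeq gene start in the GRCr8 build, chr10:83907351-83907600 on the + strand for Erbb2 and chr14:95378376-95378625 on the + strand for Egfr. Capitals mark the letters GGGCGG (the GC box, which reads CCGCCC on the other strand) or CCAAT (the CCAAT box), searched on both strands along with TATAAA, without overlap between the matches.
Erbb2: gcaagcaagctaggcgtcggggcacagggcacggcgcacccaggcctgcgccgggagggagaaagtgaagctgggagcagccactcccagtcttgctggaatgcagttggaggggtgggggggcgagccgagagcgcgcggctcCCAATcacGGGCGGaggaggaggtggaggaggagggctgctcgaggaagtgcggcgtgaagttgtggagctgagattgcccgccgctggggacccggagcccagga
Egfr: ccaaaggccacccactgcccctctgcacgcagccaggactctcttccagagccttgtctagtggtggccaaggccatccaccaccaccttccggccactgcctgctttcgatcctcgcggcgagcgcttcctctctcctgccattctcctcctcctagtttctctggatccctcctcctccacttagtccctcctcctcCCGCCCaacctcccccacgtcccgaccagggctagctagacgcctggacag
The Erbb2 window held 1 GC box and 1 CCAAT box with 69.2% G and C, and the Egfr window held 1 GC box with 63.6% G and C. Neither held TATAAA. Among 27457 rat windows of the same length, 32.4% held GGGCGG, 34.3% held CCAAT and 13.1% held TATAAA, and the median G and C content was 52%.

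In the Rn6 build used for counting, Nrg1 lay at chr16:62969988-64057434 (+ strand, 18 exons) and Nrg2 at chr18:28835396-29015552 (- strand, 12 exons). Egfr lay at chr14:99919485-100098794 (+, 28 exons), Erbb2 at chr10:86367596-86391728 (+, 27 exons), Erbb3 at chr7:2991016-3010312 (-, 28 exons) and Erbb4 at chr9:75021808-76178936 (-, 30 exons). Values are read pairs over these exons, and all isoforms of a gene are summed. Counts per sample were 34 to 189 for Nrg1, 28 to 154 for Nrg2, 87 to 486 for Egfr, 7 to 86 for Erbb2, 16 to 259 for Erbb3 and 296 to 2272 for Erbb4. Erbb2 was therefore the least precisely measured member and Erbb4 the most.

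The layer labels were checked against marker genes. Reln and Calb1, which mark layer II cells, were higher in LII (log2 fold change, LFC, 1.48 and 0.93), and all 6 deep layer markers were lower (Fezf2 -3.17). A few libraries stood apart from their groups. MEC LII replicate 1 at P2 had a summed GABAergic interneuron marker level of 1361 CPM against 250 to 637 in the other 4, and an excitatory neuron sum of 136 CPM against 625 to 784. MEC LDeep replicate 1 at P2 went against its label, with a layer II marker sum of 774 CPM against 257 to 383 in the other 4. LEC LII replicate 2 at P9 had a myelinating oligodendrocyte sum of 925 CPM against 159 to 195. Calls that change without these libraries are given with and without them.

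Compared per length of exon sequence, as TPM (counts scaled for exon length and library size), Erbb4 dominated the receptors. Erbb4 made up 80.4% ± 3.76 (SD, n = 20) of the summed receptor TPM at P2, 71% ± 5.82 (n = 16) at P9, 64.9% ± 4.58 (n = 12) at P23 and 67.7% ± 6.13 (n = 16) at P45. Erbb3 made up 1.71% ± 0.478 at P2 and 13.1% ± 5.13 at P45. Egfr stayed between 14.8% and 19% on average at the 4 ages, and Erbb2 between 2.64% and 3.98%. The summed receptor level was 115 TPM ± 24.7 at P2 and 61.3 TPM ± 14.4 at P45. Between the ligands, the median level of Nrg2 over all 64 samples was 5.24 TPM and that of Nrg1 was 3.36 TPM.

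**Figure D1:**
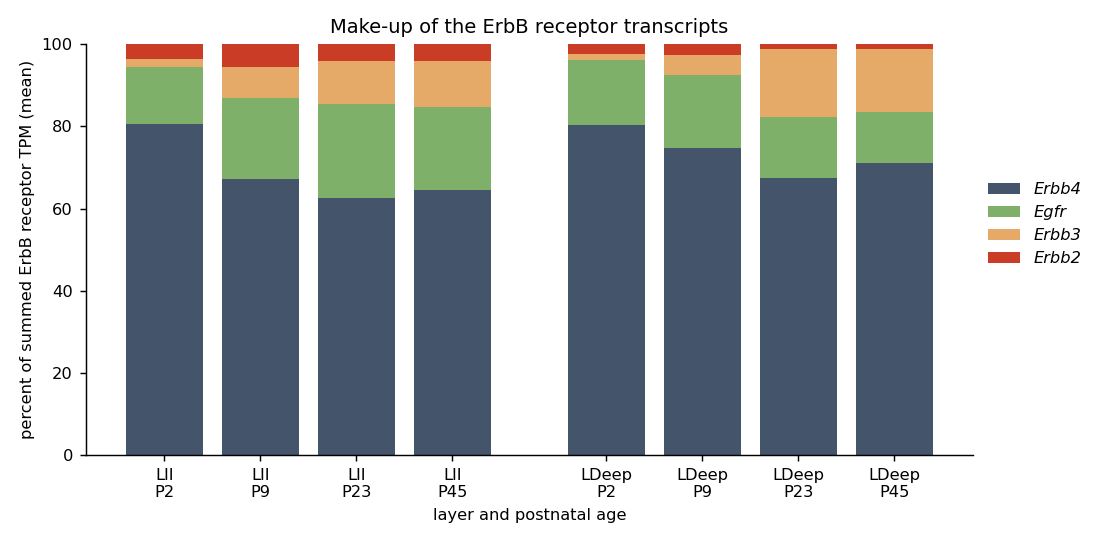
Stacked bars give the mean share of each receptor in the summed ErbB receptor TPM (percent, y axis) for LII and LDeep at each age (x axis), with 10, 8, 6 and 8 samples per bar at P2, P9, P23 and P45. Erbb4 was the largest part in all 8 bars, Erbb3 grew from P2 to P23 in both layers, and Erbb2 at P23 was 4.17% in LII and 1.12% in LDeep.

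The first question was how the family changed with age. The older ages (P23 and P45) were set against the younger ages (P2 and P9) with the mean of the regions and layers. Of the 6 members 5 changed, where 81.6% of all tested genes changed. In the older ages 4 were lower (background 40.6%) and Erbb3 was higher (background 41%). The steps between neighbouring ages placed most of this before P23. All 6 members changed from P2 to P9 (background 63.4%), 4 of 6 from P9 to P23 (background 64.6%) and 0 of 6 from P23 to P45 (background 3.85%, with 1.99% higher and 1.86% lower), by edgeR's quasi-likelihood test with Benjamini-Hochberg (BH) adjustment. With the counts of each age and replicate number summed to 1 sample, 5 of 6 members were called from P2 to P9 and 2 of 6, Erbb2 and Erbb3, from P9 to P23. For the step from P23 to P45 no member reached an unadjusted p below 0.05 either, and DESeq2 and limma also called 0.

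Nrg1, whose product signals to ErbB3 and ErbB4, was lower at the older ages with the layers and regions averaged. Its level was 3.39 to 18.7 CPM at P2 (median 15.2), 6.93 to 13.9 at P9 (median 11.1), 4.89 to 12.2 at P23 (median 7.7) and 5.41 to 21.5 at P45 (median 8.11). The ranges overlapped at every step, and the lowest P2 value was the MEC LII replicate 1 library noted above, since the other P2 samples were at 11.5 or more. The older ages were lower with an LFC of -0.52 ± 0.10 (SE; edgeR BH adjusted p = 2.6e-06), with steps of -0.47 from P2 to P9 and -0.39 from P9 to P23. The later step was -0.40 and not called with counts summed per replicate number (adjusted p = 0.071). By region, the mean log2 CPM in MEC was 3.73, 3.31, 2.85 and 2.80 at P2, P9, P23 and P45. In LEC it was 3.95, 3.56, 3.24 and 3.69, so the LEC mean at P45 was not below that at P9.

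Nrg2, a second neuregulin that binds the same receptors, did not pass the test between the older and younger ages (LFC 0.07, 95% interval -0.13 to 0.27). Its level was 6.14 to 32 CPM at P2 (median 8.14) and 6.05 to 18.8 at P45 (median 8.75). A fall of -0.31 ± 0.13 from P2 to P9 was called (edgeR BH adjusted p = 0.039). It was no longer called without P2 replicate 4 (-0.16), and not without any of P9 replicates 1, 2 or 3. Without the LEC LII replicate 2 library of P9 it was -0.31 (adjusted p = 0.051), and with counts summed per replicate number -0.31 (adjusted p = 0.061). The MEC LDeep library of P2 replicate 4 held 32 CPM of Nrg2 against 8.42 to 12.4 in the other 4.

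Erbb4, the neuregulin receptor with a full kinase and its own ligand binding, fell early. Its level was 135 to 281 CPM at P2 (median 176), 64.8 to 176 at P9 (median 86.2), 66.7 to 98 at P23 (median 78.3) and 69.9 to 131 at P45 (median 82.7). Every P2 sample was above every P23 and P45 sample, and the share of all tested genes separated in this way was not counted. The P2 to P9 step was -0.89 ± 0.09 (edgeR BH adjusted p = 4.9e-12), a 1.85-fold fall. The step from P9 to P23 was -0.29 ± 0.11 (adjusted p = 0.016), and it was -0.13 and not called without P9 replicate 4, nor was it called without P23 replicates 1 or 3. With counts summed per replicate number it was -0.28 (adjusted p = 0.09). GABAergic interneuron markers did not move 1 way over the same ages: 4 of 7 rose between the younger and older ages (Gad1 0.64, Pvalb 7.24) and 2 fell (Lhx6 -1.47, Sst -0.26). Their sum was 218 to 1361 CPM at P2 (median 464) and 573 to 836 at P45 (median 765). In tissue RNA, fewer cells of a type and less RNA per cell cannot be told apart.

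Erbb3, the kinase-impaired neuregulin receptor of the oligodendrocyte lineage, rose at both early steps. Its level was 2.54 to 6.31 CPM at P2 (median 3.87), 3.08 to 19.6 at P9 (median 8.04), 9.94 to 34.7 at P23 (median 15.1) and 11.1 to 28 at P45 (median 15.8). No P23 or P45 sample was as low as any P2 sample, a separation whose share among all tested genes was not counted. The older ages were 2.88-fold higher (LFC 1.53 ± 0.09, edgeR BH adjusted p = 2.6e-21), with steps of 1.08 ± 0.13 to P9 and 0.95 ± 0.14 to P23. Markers of myelinating oligodendrocytes moved with the second step: all 8 rose from P9 to P23 (median LFC 5.50), and their sum went from 129 to 925 CPM at P9 to 1548 to 17620 CPM at P23. From P2 to P9 3 of these 8 rose (median 0.51), with sums of 117 to 185 CPM at P2, while 4 of 5 oligodendrocyte precursor markers rose (median 0.47). In LEC samples Mobp was at 0 in both layers at P2. The part of these cells in the Erbb3 values was not tested.

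Erbb2, the partner receptor without a ligand, fell with age. Its level over both layers was 4.85 to 12.5 CPM at P2 (median 7.91), 3.27 to 11 at P9 (median 5.8), 0.972 to 8.45 at P23 (median 3.53) and 1.27 to 11.6 at P45 (median 2.85). The LFC of older against younger ages was -1.02 ± 0.10 (edgeR BH adjusted p = 6.1e-13), a 2.03-fold fall. With the layers and regions averaged, it fell by 0.47 on the log2 scale from P2 to P9 and by 0.88 from P9 to P23. The mean log2 CPM in LII was 3.15, 3.17, 2.61 and 2.67 at P2, P9, P23 and P45. In LDeep it was 2.84, 1.98, 0.82 and 1.13, so the averaged fall from P2 to P9 came from LDeep.

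Egfr, the EGF receptor, fell by 0.39 ± 0.09 between the younger and older ages with the layers and regions averaged (edgeR BH adjusted p = 9.2e-05). Its level was 19.6 to 68.1 CPM at P2 (median 33), 14.7 to 37.9 at P9 (median 26.5), 15.5 to 41.4 at P23 (median 23.4) and 9.95 to 37.9 at P45 (median 24.7). Its ranges overlapped at every age. The P2 to P9 step was -0.39 ± 0.12 (adjusted p = 0.003), and neither later step was called (-0.14 and -0.11). The mean log2 CPM in LII was 4.83, 4.87, 4.87 and 4.84 at P2, P9, P23 and P45. In LDeep it was 5.28, 4.52, 4.25 and 4.02, so the averaged fall came from LDeep.

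**Figure D2:**
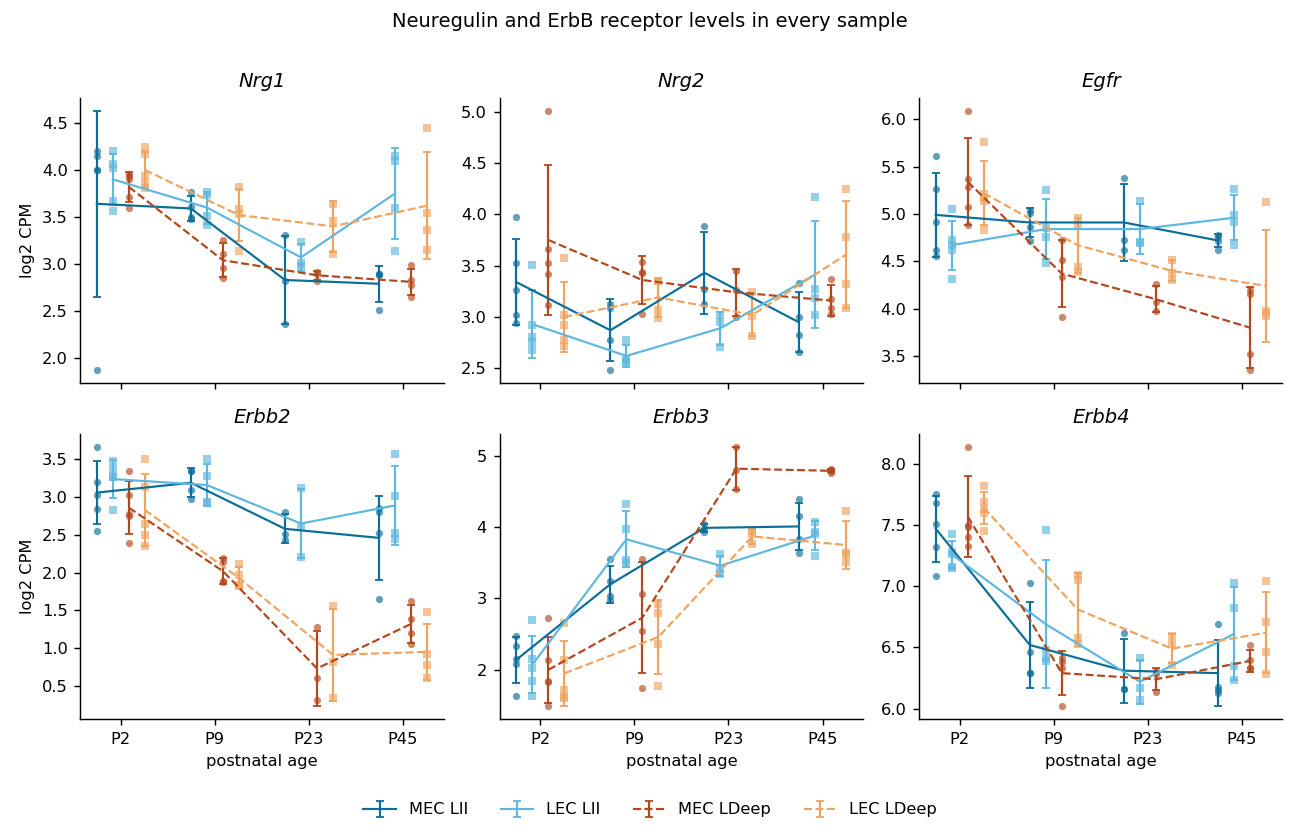
Each panel gives 1 gene, with the log2 CPM (y axis) of each of the 64 samples as a point at its age (x axis), and lines with bars for the group means ± SD of MEC and LEC (circles and squares) in LII (blue, solid) and LDeep (orange, dashed). Erbb4 was highest at P2, Erbb3 was lowest there, and the Erbb2 lines of LII and LDeep separated from P9 onwards.

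The second question was whether layer II differed from the deep layers. Over all ages and both regions 3 of 6 members were called, Erbb2 and Egfr higher and Nrg2 lower in LII, where 54% of all tested genes were called and 30.5% were lower in LII. Erbb2 carried most of this. The median LFC of the 6 members was 0.03, and that of all tested genes was -0.05.

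Erbb2 was higher in LII in 28 of 32 pairs of layers from the same region, age and replicate number. At P2 LII samples held 5.59 to 12.5 CPM (median 9.12) and LDeep samples 4.85 to 11.1 (median 6.52), with overlap. At P9 the LII samples were at 7.29 to 11 CPM and the LDeep samples at 3.27 to 4.31, without overlap. At P23 Erbb2 in MEC LII was 5.44, 5.13 and 6.69 CPM, in LEC LII 8.45, 5.83 and 4.38, in MEC LDeep 0.972, 1.26 and 2.16, and in LEC LDeep 1.5, 1 and 2.68. At P45 it was 5.53, 6.69, 7.02 and 2.87 CPM in MEC LII and 11.6, 5.16, 7.85 and 5.46 in LEC LII. The deep layers at P45 held 2.03, 2.34, 1.81 and 2.84 CPM in MEC and 1.27, 1.62, 1.45 and 2.52 in LEC. From P9 onwards the layers did not overlap, which was so at P9, P23 and P45 for 7.56%, 14.8% and 5.89% of all tested genes.

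The LFC of Erbb2 in LII against LDeep was 1.30 ± 0.10 (edgeR BH adjusted p = 1.3e-15), a 2.46-fold difference. By age it was 0.30 ± 0.17 at P2 (adjusted p = 0.21), 1.26 ± 0.19 at P9, 1.89 ± 0.25 at P23 and 1.73 ± 0.21 at P45. The difference was 1.03 ± 0.21 larger at the older than at the younger ages (adjusted p = 0.00042). That test called 3 of 6 members and 8.8% of all genes, 4.83% with a larger and 3.97% with a smaller value at the older ages. It was 1.17 ± 0.15 in MEC, where 2 of 6 members were called (background 40.8%, with 19.9% lower in LII), and 1.42 ± 0.15 in LEC, where 1 of 6 was called (background 38.6%). The test of that contrast between regions called 0 of 6 members by edgeR, DESeq2 and limma (1 of 6 at an unadjusted p below 0.05 in each, background 1.25%, with 0.942% higher).

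Markers of other cells moved with the Erbb2 layer difference. Of 8 meningeal fibroblast markers 7 were higher in LII (median LFC 4.01) and Dcn was lower (-0.48); their sum was 18.3 to 1326 CPM in LII (median 768) and 21 to 797 in LDeep (median 120). All 6 endothelial markers (median 0.88), 6 of 7 astrocyte markers (median 0.79) and all 3 tested choroid plexus markers (median 1.43) were also higher in LII. The meningeal difference was already present at P2, with 7 of 8 markers higher in LII (median 3.48), when Erbb2 was not called. At P2, MEC LII replicates 1 and 3 had meningeal sums of only 18.3 and 33.2 CPM and 6.89 and 5.59 CPM of Erbb2, and the other 8 LII samples had 6.86 to 12.5. In the other direction, MEC LDeep replicate 1 at P2 had a meningeal sum of 797 CPM, against 42.3 to 84.9 in the other 4. Its Erbb2 was 9.84 CPM, against 4.98 to 7.89 in those 4. These libraries, with meningeal sums unlike the rest of their layer, are part of the P2 comparison. At P45, MEC LII replicate 4 had the lowest meningeal sum of that layer, 204 CPM, and the lowest Erbb2, 2.87 CPM. Ogn was at 0 in all LEC LDeep samples at P2, P9 and P23. The part of these cells in the Erbb2 difference was not tested.

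**Figure D3:**
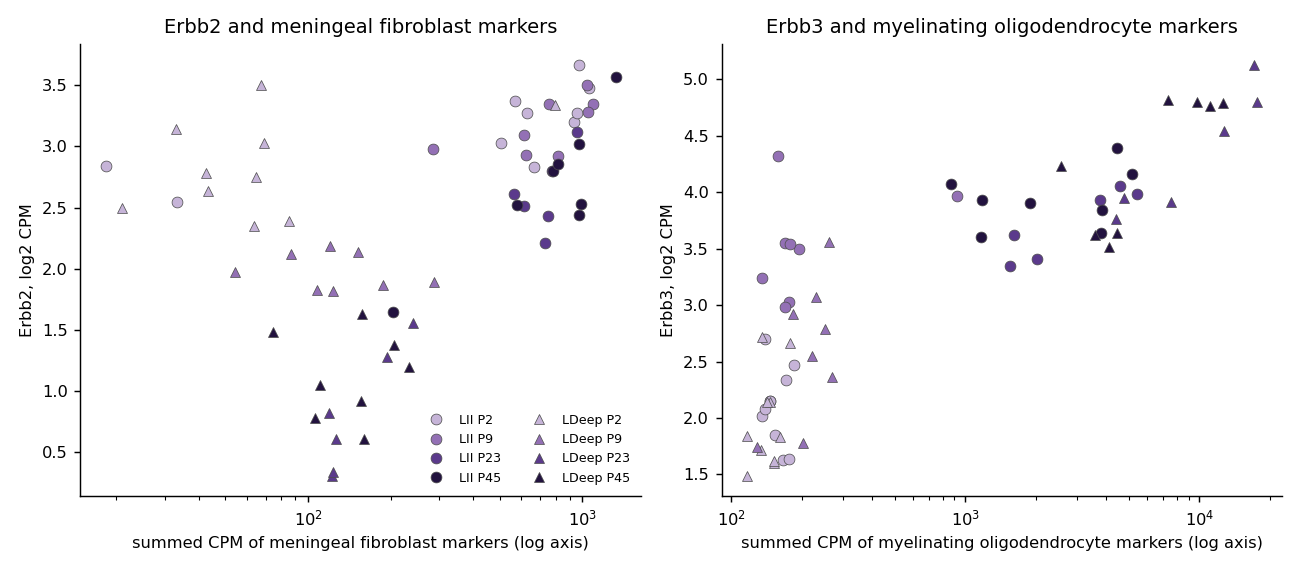
Left, log2 CPM of Erbb2 (y axis) against the summed CPM of 8 meningeal fibroblast markers (log x axis); right, log2 CPM of Erbb3 against the summed CPM of 8 myelinating oligodendrocyte markers (log x axis); each point is 1 of 64 samples, circles LII and triangles LDeep, darker with age. Erbb2 was at 4.85 CPM or more in all P2 samples across meningeal sums of 18.3 to 1062 CPM, and the highest Erbb3 values were those of the MEC LDeep samples at P23 and P45, with myelin sums of 7331 to 17620 CPM.

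Egfr changed sides between the layers with age. At P2 LDeep samples held 28.3 to 68.1 CPM (median 36.2) and LII samples 19.6 to 48.5 (median 25.6). At P23 LII samples held 24.3 to 41.4 CPM and LDeep samples 15.5 to 22.5, without overlap. At P45 Egfr was 25.9, 27.2, 24.2 and 26.9 CPM in MEC LII and 9.95, 17.4, 11.2 and 18.1 in MEC LDeep. In LEC at P45 it was 31.6, 29.7, 25.2 and 37.9 CPM in LII and 15.6, 14.8, 15.2 and 34.8 in LDeep, where only replicate 4 reached the LII range.

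At P2 Egfr was the 1 member called between the layers (background 19.2%, with 8.48% lower in LII), and at P9 3 of 6 were called (background 33%, with 16.7% higher in LII). At P23 3 of 6 were called (background 25.9%) and at P45 2 of 6 (background 26.4%). For Egfr the LII against LDeep LFC was -0.46 ± 0.15 at P2 (edgeR BH adjusted p = 0.027), 0.35 ± 0.17 at P9 (adjusted p = 0.12), 0.66 ± 0.20 at P23 (adjusted p = 0.011) and 0.77 ± 0.18 at P45 (adjusted p = 0.00052). The older ages exceeded the younger in this difference by 0.77 ± 0.18 (adjusted p = 0.0021). The P2 value was -0.58 without the 2 MEC replicate 1 libraries, and it was not called without P2 replicate 3, 4 or 5 or P23 replicate 3, each left out in turn, or in a fit of P2 samples alone. At P23, with 3 replicates, leaving out any replicate lost the call (0.59 to 0.67). With the replicate number as a block, the P9 value of 0.35 was called (adjusted p = 0.047). The marker lists given for Erbb2 did not change sides with Egfr. At P2, where Egfr was lower in LII, the meningeal sums had a median of 647 CPM in LII and 64.1 in LDeep, the endothelial sums 335 and 145, and the astrocyte sums 1058 and 824. At P23 and P45 these lists and Egfr were both higher in LII, and their part there was not tested.

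Erbb3 had no overall layer difference that passed the test (LFC 0.02, 95% interval -0.17 to 0.20), and its layer difference had opposite signs at P9 and P23. At P9 it was higher in LII, with 11, 15.4, 11.3 and 19.6 CPM in LEC LII and 3.16, 4.89, 6.65 and 7.29 in LEC LDeep. MEC at P9 had 7.93, 7.6, 11.5 and 9.18 CPM in LII and 5.6, 8.15, 11.5 and 3.08 in LDeep, which overlapped. At P23 it was lower in LII in 6 of 6 pairs. The LFC was 0.87 ± 0.19 at P9 (edgeR BH adjusted p = 0.00023), -0.64 ± 0.21 at P23 (adjusted p = 0.015) and -0.31 ± 0.18 at P45 (adjusted p = 0.2). Between the older and younger ages the layer difference shifted by -0.98 ± 0.19 (adjusted p = 0.00022). The P23 call was lost without P23 replicate 1 or 2. Without the LEC LII replicate 2 library, which had raised myelin markers, the P9 value was 0.85. In LEC over all ages the LFC of 0.31 was not called (adjusted p = 0.068), and with the replicate number as a block it was (0.31, adjusted p = 0.039). Myelinating oligodendrocyte markers were lower in LII at P23, with sums of 1548 to 5402 CPM there and 4408 to 17620 in LDeep, and 7 of 8 were called lower in the test of the layer difference by age (median -1.86). At P9, where Erbb3 was higher in LII, 2 of these 8 were called higher in LII and 0 lower, and their sums were 135 to 925 CPM in LII (median 173) and 129 to 269 in LDeep (median 226). Their part was not tested.

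Among the other members, Nrg2 was lower in LII than in LDeep, with an LFC of -0.24 ± 0.10 (edgeR BH adjusted p = 0.039) and LII the lower layer in 24 of 32 pairs. The call was near the threshold and was lost in 8 of the 16 fits that left out 1 replicate number of 1 age. At P9 the LFC was -0.54 ± 0.20 (adjusted p = 0.035), LII was lower in 8 of 8 pairs, and the value without the LEC LII replicate 2 library was -0.53 (adjusted p = 0.055). It was lost in 6 of the 16 such fits. Within MEC Nrg2 was not called (-0.25, adjusted p = 0.16), and without the 2 MEC replicate 1 libraries of P2 it was (-0.32, adjusted p = 0.048). Nrg1 (0.04, 95% interval -0.15 to 0.22) and Erbb4 (-0.07, 95% interval -0.21 to 0.06) were not called. In LEC alone Erbb4 was -0.18 (adjusted p = 0.14), and -0.20 (adjusted p = 0.035) with the replicate number as a block.

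**Figure D4:**
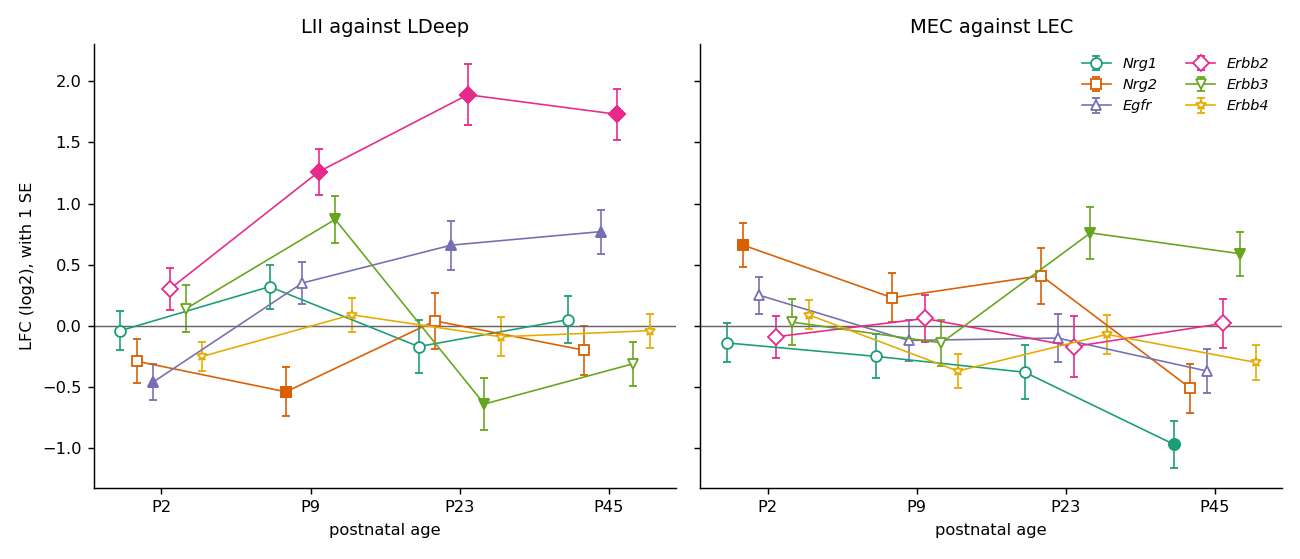
LFC with 1 SE (y axis, log2) of LII against LDeep (left, positive where LII was higher) and of MEC against LEC (right, positive where MEC was higher) at each age (x axis) for the 6 members, with filled symbols where the adjusted p was below 0.05. On the left Erbb2 went from 0.30 at P2 to 1.89 at P23 and Egfr from -0.46 at P2 to 0.77 at P45, and on the right Nrg1 reached -0.97 at P45.

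The last question was whether the regions differed. In MEC against LEC 2 of 6 members were called, Nrg1 lower and Erbb3 higher in MEC, with a background of 15.4% (8.87% higher and 6.53% lower in MEC).

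Nrg1 was lower in MEC in 23 of 32 pairs of the same layer, age and number (LFC -0.44 ± 0.09, edgeR BH adjusted p = 0.00052). At P45 its level in MEC was 7.13, 5.41, 7.14 and 7.1 CPM in LII and 5.99, 6.59, 6.84 and 7.7 in LDeep. In LEC at P45 it was 11.9, 17.5, 8.53 and 16.9 CPM in LII and 8.6, 9.97, 11.4 and 21.5 in LDeep. All 8 MEC samples at P45 were below all 8 LEC samples, a separation found for 1.35% of tested genes, and the LFC was -0.97 ± 0.19 (adjusted p = 0.00022, background 9.12%). Neither of the 2 layer II markers was called between the regions at P45 (median LFC -0.54). In LEC LII their sums were 695, 1151, 675 and 1444 CPM for replicates 1, 2, 3 and 4, so replicates 2 and 4 had both the higher sums and the higher Nrg1. In LEC LDeep the sums were 397, 613, 383 and 821 CPM. Replicate 4 there had both the highest sum and the highest Nrg1, and replicate 3 had the lowest sum with more Nrg1 than replicates 1 and 2. That replicate 4 library was also the highest of its group for all 6 members. Its excitatory neuron sum was 3532 CPM, against 2354, 2263 and 2458 in replicates 1, 2 and 3, so its higher values were not particular to Nrg1 or to layer II markers. The part of layer II cells in the Nrg1 values was not tested. At P2, P9 and P23 the LFC was -0.14, -0.25 and -0.38, none of them called, and the P2 value was -0.00 ± 0.13 without the 2 MEC replicate 1 libraries. The shift of the region difference from younger to older ages was -0.48 ± 0.19 (adjusted p = 0.16), and -0.54 ± 0.15 (adjusted p = 0.015) without the 2 MEC replicate 1 libraries of P2.

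Erbb3 was higher in MEC overall (LFC 0.31 ± 0.09, edgeR BH adjusted p = 0.017), and the older ages exceeded the younger in this by 0.73 ± 0.19 (adjusted p = 0.015, background 4.38%). At P23 its level was 34.7, 23 and 27.6 CPM in MEC LDeep and 13.3, 15.2 and 14.8 in LEC LDeep. At P45 the values were 26.9, 27.5, 27.3 and 28 CPM in MEC LDeep and 11.1, 12.2, 12.1 and 18.5 in LEC LDeep. These groups of 3 and of 4 did not overlap, which was so for 15.8% of all tested genes at P23 and 7.32% at P45. At P23 Erbb3 was the 1 member called (background 3.57%, with 2.01% higher in MEC). In LDeep over all ages, where Nrg1 and Erbb3 were called (background 5.78%), the LFC was 0.60 ± 0.13 (adjusted p = 0.002), and in LII it was 0.02 ± 0.13 (adjusted p = 0.95). The difference between these layers was not called (-0.58 ± 0.19, adjusted p = 0.12). The overall call was lost without P9 replicate 3 or P23 replicate 1, the shift with age was lost without P23 replicate 1, and the calls at P23 (0.76) and P45 (0.59) were each lost in 3 of those 16 fits. Myelinating oligodendrocyte markers went the same way: at P23 and at P45 7 of 8 were higher in MEC (median LFC 1.51 and 1.70), and in LDeep of these ages their sum was 7331 to 17620 CPM in MEC and 2571 to 7596 in LEC. Their part was not tested.

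Nrg2 was called higher in MEC at P2 and at no other age (LFC 0.66 ± 0.18, edgeR BH adjusted p = 0.029, background 2.67%, with 1.91% higher in MEC), and the test of its change with age was not called (-0.50 ± 0.20, adjusted p = 0.18). The P2 value was 0.47 and not called without P2 replicate 4, nor was it called without replicates 1 or 5, by limma, or in a fit of P2 samples alone. Egfr, Erbb2 and Erbb4 were not called between regions (-0.09 ± 0.09, -0.04 ± 0.11 and -0.16 ± 0.07). With the replicate number as a block Erbb4 was called lower in MEC (-0.16, adjusted p = 0.035), also at P9 (-0.36, adjusted p = 0.037) and in LDeep (-0.27, adjusted p = 0.021). Within LII, 0 of 6 members were called between regions by edgeR, DESeq2 or limma, with 1 at an unadjusted p below 0.05 in each (background 12.6%). At P9 the same counts held (background 3.88%, with 2.21% higher and 1.67% lower in MEC).

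Other genes of the pathway were taken from lists of 30 names, of which 26 were measured and 23 tested. Between the younger and older ages 9 rose (background 41%), 9 fell (background 40.6%) and 5 were not called, with a median LFC of -0.01 beside 0.01 for all genes. Among the other ErbB ligands, 8 of which were measured and 5 tested, Hbegf (-1.58 ± 0.08) and Tgfa (-1.32 ± 0.13), both ligands of EGFR, fell along with Btc (-0.76 ± 0.25), Epgn rose (0.41 ± 0.15) and Egf was not called. Among the sheddases, the proteases that release these ligands, Adam19 fell (-0.87 ± 0.07), Bace1 (0.19 ± 0.04) and Adam17 (0.15 ± 0.05) rose, and Adam10 was not called. Among the adaptors and kinases Ptpn11 rose (0.23 ± 0.03), and Akt1 (-0.65 ± 0.04), Sos1 (-0.36 ± 0.07), Mapk3 (-0.28 ± 0.04) and Gab1 (-0.21 ± 0.05) fell.

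Of the 3 negative regulators tested, Errfi1, an inhibitor of the ErbB kinases, rose with age (0.55 ± 0.05), as did Spry2 (0.30 ± 0.05), and Rnf41, a ubiquitin ligase for ErbB3, fell (-0.71 ± 0.04). Both scaffolds tested, Dlg4 (PSD-95, which binds ErbB4 at synapses) and Dlg2, rose by 0.56 ± 0.06 and 0.43 ± 0.06. In LII against LDeep 7 of the 23 pathway genes were higher (background 23.5%), 8 lower (background 30.5%) and 8 not called. Shc1, an adaptor (1.02 ± 0.09), and Tgfa (0.81 ± 0.12) had the 2 largest differences, both higher in LII. Errfi1 (0.46 ± 0.05) and Adam17 (0.37 ± 0.05) were higher there too, and Dlg2 (-0.41 ± 0.06) and Pik3r1 (-0.39 ± 0.04) were lower. In MEC against LEC 2 of 23 were higher (background 8.87%) and 4 lower (background 6.53%), with LFCs from -0.28 (Mapk3) to 0.15 (Gab1) among those called.

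The order of the 16 groups by mean log2 CPM was finely graded for all members. Of the 15 steps between neighbours in that order, the gap exceeded the larger SD of the neighbours in 1 step each for Nrg1, Erbb2, Erbb3 and Erbb4 and in 0 steps for Nrg2 and Egfr. Across these group means, which share libraries and ages, the members were most alike for Nrg1 with Erbb4 and for Egfr with Erbb2 (Pearson r of 0.81 each), and most opposed for Erbb3 with Erbb4 (-0.81). Among 11896 tested genes with a mean of at least 1 CPM, those most like each member were as follows. For Nrg1 they were Rnf217, Tmem200a, Fign, Pcdh19 and Pvrl1, the first with r of 0.95. For Nrg2 they were Zbtb40 (0.82), Mir935, Zmiz2, Pex6 and Tgfbrap1. For Egfr they were Slc10a3 (0.92), Cd68, Thbs1, Plce1 and Arhgef40, and for Erbb2 Ano6 (0.97), Cpxm1, Mmp14, Jag1 and Lrp5. For Erbb3 they were Gamt (0.96), Cmtm5, Paox, Clstn2 and Nr3c1, and for Erbb4 Dyrk1a (0.98), Zfp316, G3bp1, Ctc1 and Fiz1.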

How the data were processed

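Total RNA of 64 dissected tissue samples was sequenced as stranded, ribosome-depleted libraries. The authors trimmed reads with Trimmomatic 0.33, aligned them to Rn6 with STAR 2.4.0 and counted pairs on RefSeq exons with featureCounts (Subread 1.4.6-p1). The deposited values are whole-number counts per gene, without normalization, strand-specific, for pairs with both ends aligned and not chimeric, and a pair that overlapped several genes was counted for each. The deposited exon length of each gene was used only for TPM. No member overlapped another gene.

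Here counts were scaled by TMM and filtered by filterByExpr, and 16 group means were fitted to all 64 samples with edgeR 4.0.16 (quasi-likelihood). LFCs are log2, SE is the LFC divided by the square root of F, and p-values were BH adjusted over all 12521 tested genes with a threshold of 0.05. log2 CPM used a prior count of 2. DESeq2 1.42.0, limma 3.58.1 (voom, TMM and quantile, as in the study), other filters and left-out samples were alternatives. The edgeR, DESeq2 and limma fits were tested on simulated counts first. Groups came from the sample labels. The smallest chi-square per degree of freedom among 100 pairs of replicates of the same group was 3.08, so no library was a repeat of another of its group. Libraries of different groups were not compared in this way.

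The members, pathway lists and marker lists were chosen with earlier results of these data known. The genes named were the members, the pathway lists, and the 5 genes most correlated with each member. Genes named as markers came from the marker lists and were picked after their values were seen.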

Additional observations from a re-analysis of the deposited data

Results flagged for a closer look

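Within each group of 4 or 5 samples, 72 combinations of member and group were examined for 1 sample far from the others, and 9 were found. Chance marks about 1 in 20 of such groups. Values are log2 CPM. Nrg1 was 1.87 in MEC LII replicate 1 at P2 (34 counts) against 4.00 or more in the other 4, in the library with few excitatory neuron markers. Nrg1 was 2.51 in MEC LII replicate 2 at P45, and 2.88 to 2.89 in the others. Nrg2 was 5.01 in MEC LDeep replicate 4 at P2 (others 3.12 to 3.66), 3.51 in LEC LII replicate 4 at P2 (others 2.68 to 2.92) and 2.78 in LEC LII replicate 3 at P9 (others 2.55 to 2.59). Egfr was 5.13 in LEC LDeep replicate 4 at P45, where the others were at 3.92 to 3.98. Erbb4 was 8.14 in MEC LDeep replicate 4 at P2 (others 7.33 to 7.50), 7.46 in LEC LII replicate 4 at P9 (others 6.39 to 6.48) and 6.69 in MEC LII replicate 4 at P45 (others 6.13 to 6.18). Over all groups, 6 libraries were the highest of their group for 4 or more of the 6 members, and 5 of these 6 carried the number 4. At P2 they were LEC LDeep (5 members), LEC LII (4) and MEC LDeep (4), at P45 LEC LDeep (6) and MEC LDeep (4), and the other was LEC LDeep replicate 2 at P23 (5). Their TMM scaling factors, in that order, were 1.021, 1.013, 0.8986, 0.8872, 0.9426 and 0.9142, where all samples ran from 0.887 to 1.12. In MEC LDeep replicate 4 at P2 the counts were 1247 for Erbb4 (others 1248 to 1570) and 142 for Nrg2 (others 59 to 102). In LEC LDeep replicate 4 at P45 Egfr had 152 counts (others 119 to 157).

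By a test of the difference itself, 4 effects differed between groups. The LII against LDeep difference changed between the younger and older ages for Erbb2 (1.03), Egfr (0.77) and Erbb3 (-0.98), and the MEC against LEC difference did so for Erbb3 (0.73). Myelinating oligodendrocyte markers shifted in the same direction as both Erbb3 values, 7 of 8 called for the layers (median -1.86) and 5 of 8 for the regions (median 1.62), and their part was not tested.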

How the results depend on the processing

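Counts of members called are given for each alternative that moved them by over 1.5 times, with the value of the reported fit in brackets, and the cause was not tested unless named. With at least 10 counts required in every sample, 1 of the remaining members was called for LII against LDeep (3), 0 at P2 (1), 1 at P9 (3), 1 at P45 (2) and 1 in MEC (2). By construction that filter removed Erbb2, whose lowest count was 7, and Egfr was the member lost at P2. In fits of 1 age alone, LII against LDeep called 0 at P2 (1) and 5 at P9 (3), and MEC against LEC called 0 at P2 (1). With limma 4 were called for LII against LDeep in MEC (2), 2 in LEC (1), 0 for MEC against LEC at P2 (1) and 1 in LDeep (2). It also turned the sign of 3 small pathway values in LII against LDeep, Egf to -0.08 (0.33), Ptpn11 to 0.04 (-0.07) and Akt1 to 0.11 (-0.00). DESeq2 called 2 for LII against LDeep in LEC (1). RLE scaling and no filter moved no count by that much.

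Same-numbered samples of an age correlated by 0.142 on average over 96 pairs (from -0.264 to 0.593, 57 above 0.1) and differently numbered ones by -0.0454 over 300 pairs (65 above 0.1). Not every same-numbered pair was above 0.1, and the labels do not say what the number of a library marks, so whether the numbers pair these samples is not settled here. With a replicate block 3 members were called for LII against LDeep in LEC (1) and 1 for MEC against LEC at P9 (0), and with counts summed per replicate number 2 were called from P9 to P23 (4). No other count of members moved by over 1.5 times under the block. Chosen after seeing the data, leaving out the 2 MEC P2 libraries numbered 1 gave 2 members for the change of MEC against LEC with age (1).

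Leaving out each replicate number of each age gave 5 to 6 members from P2 to P9, 3 to 4 from P9 to P23, 2 to 3 for LII against LDeep, 0 to 1 at P2, 2 to 3 at P9, 1 to 3 at P23, 2 to 3 in MEC and 1 to 3 in LEC. For MEC against LEC it gave 1 to 2 over all samples, 0 to 1 at P2, 0 to 1 at P23, 1 to 3 at P45, 0 to 1 in LII and 0 to 2 for the change with age. Erbb2, with 7 to 22 counts per sample in the older LDeep groups, was the member most limited by depth.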
